A study of Mus musculus with 6 samples.

Results

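The wild type lens placode of the mouse embryo at embryonic day 9.5 was described from 3 bead arrays. A probe was kept where its detection p-value, which sets its signal against the negative control beads of the same array, was under 0.01 on all 3 arrays. The kept probe with the highest mean log2 signal stood for its gene, and genes were ordered by that mean. Of 19057 genes with a symbol and a probe, 7929 (41.6%) were detected in this way, 2373 were detected on 1 or 2 arrays, and 8755 (45.9%) were detected on none. Detection and signal chose and ordered the genes, so all counts and ranks are descriptions and carry no test.

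The lens placode is the thickened patch of head surface ectoderm that lies against the optic vesicle, the outgrowth of the forebrain that becomes the retina. It later folds inward, closes into a vesicle and fills with fibre cells rich in crystallins. The paired and homeodomain factor Pax6 is required in the ectoderm for the placode to form. BMP and FGF signals act with it, and Wnt activity is held low in the ectoderm that will be lens.

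The wild type embryos, on a mixed background of the FVB and 129 strains, were collected at embryonic day 9.5, frozen and cut into sections 10 µm thick, from which the placode was taken by laser microdissection. Per the labels, tissue of 3 embryos was pooled by genotype, and triplicates were amplified to cDNA and given a biotin label. Nothing in the labels says that the 3 arrays hold separate animals, so the spread among them may be technical. The series also holds 3 arrays of Pax6-/- surface ectoderm of the same age and background, which were not used. RNA of whole dissected tissue was measured, so fewer cells of a type and less RNA per cell cannot be told apart.

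The 3 arrays had 16796, 16690 and 16532 probes with a detection p under 0.01, among 45281 probes. Their mean signals were 244, 260 and 240, and a probe was read from a median of 45, 44 and 45 beads. Replicates 1 and 3 correlated at 0.967 across the 13829 kept probes on the log2 scale, while replicate 2 correlated at 0.929 with replicate 1 and at 0.932 with replicate 3. Replicate 2 stood apart from both others although it shared slide 2 with replicate 3, and replicate 1 was on slide 1. Probes are not independent replicates, and these correlations describe the arrays only.

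Detected genes were placed on a scale of rank position, where 100 is the brightest probe and 50 the middle. Genes above position 75 were called bright, those at or below 25 dim, and the others intermediate. Bright probes had mean log2 signals between 9.69 and 15.17, intermediate ones between 7.56 and 9.69, and dim ones between 6.49 and 7.56. Bright genes made up 10.4% of all genes with a symbol. Signals include background, and a probe's brightness depends on the probe and the transcript as well as on the amount of RNA. A position therefore orders probes, and no gene is set against another gene by amount.

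The gene classes separated widely on this scale. Ribosomal, translation, glycolysis and imprinted growth genes were mostly or all detected, with median positions above 90. Ectoderm, junction, matrix and signalling genes were detected in part, and the median positions of these lists lay between 36.5 and 69.3. Hox genes, cornified epidermis genes and genes of distant organs were seldom detected on every array. Detected on no array were 36 of 38 Hox genes, 17 of 22 cornified epidermis genes and 45 of 61 genes of distant organs. In 24 of 37 gene lists the share of members detected was above the 41.6% of all genes. Among the 24 were the 6 placode markers, chosen with earlier results of these data known. The ribosomal, translation, glycolysis, cell cycle and imprinted growth lists were also among them. Some lay just above the share, such as tight and gap junction genes at 41.7% and FGF pathway genes at 42.3%.

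**Figure D1:**
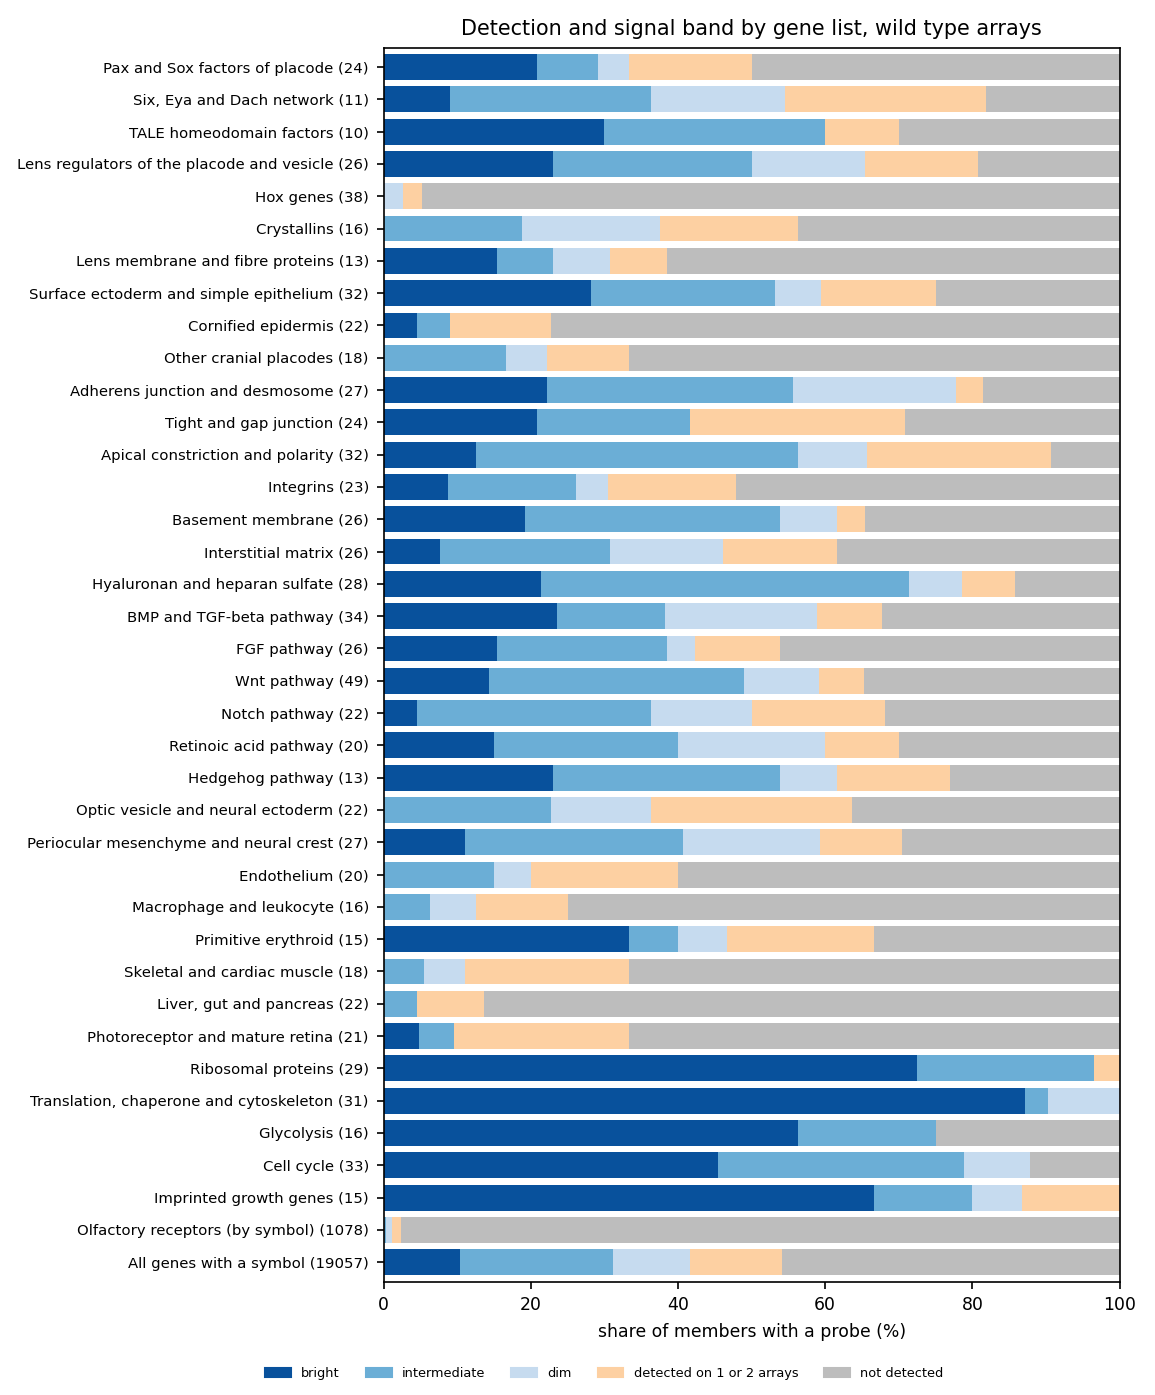
Share of the members of each gene list (in %, horizontal axis) that were bright, intermediate, dim, detected on 1 or 2 arrays, or detected on no array, over the 3 wild type arrays. The number of members with a probe stands in brackets, and the last bar gives all 19057 genes. Translation and chaperone genes were detected in 31 of 31 cases, and Hox genes in 1 of 38.

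All 6 lens placode markers were bright on their brightest probe. These 6 were chosen with earlier results of these data known, so they are no check of the tissue. Values of the wild type arrays are given throughout as log2 signals in the order of replicates 1, 2 and 3. Sox11, an SRY-box factor of embryonic progenitors and epithelia, read 12.64, 12.61 and 12.61 (position 99.2). Eya1, a transcriptional coactivator and phosphatase that partners homeodomain factors such as Six3, read 11.84, 12.10 and 11.89 (position 97.8). The 3 arrays stood close together for both genes, and closest for Sox11 (SD 0.0185).

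Aldh1a3, which makes retinoic acid in the early eye, read 11.22, 11.47 and 11.52 (position 95.4). Another of its 3 probes was detected on 2 arrays only, at 7.42, 6.11 and 6.97. Pax6 itself read 11.20, 11.29 and 11.28 (position 94.6) on its brighter probe and 10.95, 11.43 and 11.05 on its other probe. Both Pax6 probes were detected on all 3 arrays. Mab21l1, which is needed for the lens vesicle to form, read 10.30, 10.52 and 10.48 (position 86.8). Its other probe was also detected on all 3 arrays, at 8.60, 8.90 and 8.69.

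Sox2, the SRY-box partner of Pax6 on lens enhancers, was the marker with the widest spread. Its probe read 9.42, 10.97 and 10.15 (position 83.1), with replicate 2 highest and replicate 1 lowest. A range of more than 1 among the arrays was reached by 19.4% of the detected genes on the scale of limma's neqc method, and Sox2 was among them. Its second probe was detected on 2 arrays only, at 6.50, 6.45 and 6.14.

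Promoter sequence, which the choice of genes did not use, differed between detected and undetected genes. RefSeq windows of 300 bases, from 250 before to 50 after the start (mouse assembly GRCm38.p6), were matched by symbol for 12655 genes that had a single entry. Part of the windows is shown for placode and ectoderm genes and for genes of differentiated tissues, picked after their values were seen, as the 150 bases before the start with every CG in capitals. Sox11 lies at chr12:27342719-27342868 on the minus strand, Sox2 at chr3:34649845-34649994 on the plus strand, and Cldn6, a claudin of embryonic epithelia, at chr17:23679215-23679364 on the plus strand. Alb, the serum albumin of liver, lies at chr5:90460720-90460869 on the plus strand, and Lor, the loricrin of the cornified skin layer, at chr3:92083143-92083292 on the minus strand.
Sox11: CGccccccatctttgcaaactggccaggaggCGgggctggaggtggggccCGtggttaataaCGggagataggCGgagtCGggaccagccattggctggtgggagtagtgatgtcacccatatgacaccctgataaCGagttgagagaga
Sox2: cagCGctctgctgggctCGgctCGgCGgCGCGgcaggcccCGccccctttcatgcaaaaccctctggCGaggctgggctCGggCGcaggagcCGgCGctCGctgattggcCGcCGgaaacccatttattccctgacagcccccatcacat
Cldn6: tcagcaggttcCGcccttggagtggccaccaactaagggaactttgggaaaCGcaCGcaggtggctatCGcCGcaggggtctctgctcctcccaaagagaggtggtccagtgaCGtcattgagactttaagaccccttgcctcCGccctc
Alb: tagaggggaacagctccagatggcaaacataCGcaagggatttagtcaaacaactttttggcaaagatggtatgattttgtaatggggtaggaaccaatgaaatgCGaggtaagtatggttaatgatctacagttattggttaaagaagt
Lor: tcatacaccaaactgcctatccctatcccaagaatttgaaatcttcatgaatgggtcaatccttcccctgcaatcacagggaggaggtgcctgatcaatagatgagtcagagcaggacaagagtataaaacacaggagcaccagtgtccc
The stretches of Sox11, Sox2 and Cldn6 hold 7, 15 and 7 CG dinucleotides, while those of Alb and Lor hold 2 and 0. Sox11, Sox2 and Cldn6 were bright, and Alb and Lor were detected on no array.

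Across the matched genes, the 5166 detected on all 3 arrays had a median of 22 CG dinucleotides per window and a GC content of 61.7%. The 6032 detected on none had a median of 5 and a GC content of 50.7%, and over all 12655 windows the median was 15. A window with at least 10 CG dinucleotides was found for 90.0% of the detected and 32.7% of the undetected genes, against 60.7% of all windows. The motif TATAAA, searched on both strands, occurred in 6.81% of detected, 20.2% of undetected and 13.3% of all windows. GGGCGG, searched on both strands and itself containing a CG, occurred in 69.3%, 30.0% and 49.3% of the same windows. CCAAT, searched on both strands, was found at nearly equal shares of 40.5%, 38.0% and 39.0%.

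The undetected group holds many olfactory receptor genes, whose windows had a median of 1 CG dinucleotide (n = 906). With these left out, 5143 undetected genes had a median of 6 CG dinucleotides, and 16.5% of their windows held TATAAA. The bright genes had a median of 24 CG dinucleotides, the intermediate ones 23 and the dim ones 21, so the bands differed from each other by far less than each did from the undetected genes. Windows of the cornified epidermis list, whose genes were mostly undetected, had a median of 2 CG dinucleotides, and 55.6% of these 18 windows held TATAAA. A Hox window had a median of 14.5 CG dinucleotides, near the middle of all windows, although its gene was almost always undetected.

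**Figure D2:**
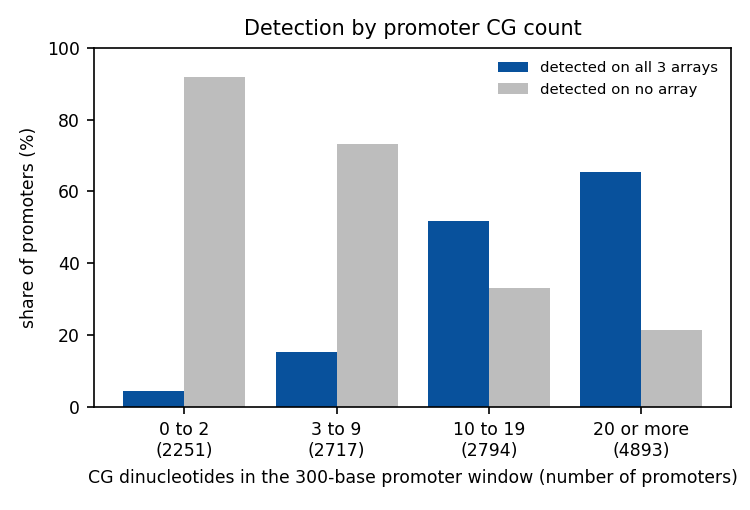
Share of promoters (in %, vertical axis) whose gene was detected on all 3 wild type arrays or on none, by the number of CG dinucleotides in the 300-base window (horizontal axis, with the number of promoters in brackets). The share detected was 4.49% with 0 to 2 CG, 15.2% with 3 to 9, 51.8% with 10 to 19 and 65.5% with 20 or more.

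Among transcription factors of the placode and its surroundings, Hox genes aside, 37 of 71 genes with a probe were detected (52.1%, against 41.6% of all genes). With the Hox genes included, 38 of 109 were detected (34.9%), below the share of all genes. Of the 37, 15 were bright. The brightest after Sox11 and Eya1 was Tfap2c, an ectodermal factor of the Tfap2 family, at 11.55, 11.67 and 11.56 (position 96.5). Its relatives Tfap2b, at 10.66, 10.87 and 10.46, and Tfap2a, at 9.65, 9.76 and 9.90, were bright as well. The probes of Tfap2c, Tfap2b and Tfap2a had SDs of 0.0688, 0.206 and 0.126, beside a median of 0.177 for bright genes.

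The TALE homeodomain factors are partners of Pax and Hox proteins on DNA. They were detected in 6 of 10 cases (60%, against 41.6% of all genes) with a median position of 83.2. Pbx2 read 11.23, 11.22 and 11.35 (position 94.6). Meis2, which acts upstream of Pax6 in the lens placode, averaged 10.99 (SD 0.0314, n = 3, position 92.6) with no array apart from the others. Meis1, which shares that role, read 10.74, 11.29 and 10.59 (position 91.6), with replicate 2 highest. Tgif1, a repressor of TGF-beta targets, was intermediate at 9.55, 10.08 and 9.40. Pbx3, Pbx4 and Pknox1 were detected on no array.

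Of 24 Pax and Sox factors, 8 were detected (33.3%, against 41.6% of all genes), with a median position of 87.7. Sox9 read 10.94, 11.44 and 11.34 (position 94.5), and Sox12, a relative of Sox11, read 11.07, 10.99 and 10.81 (position 92.4). Pax6 was the only Pax gene detected on all 3 arrays. Pax2, of the optic stalk and otic placode, was detected on 2 arrays, and Pax1, Pax3, Pax4, Pax5, Pax7, Pax8 and Pax9 on none. Sox1 and Sox3 were likewise undetected, and Sox21 was detected on 2 arrays.

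In the network of Eya1, Six3, Dach1 and their relatives, 6 of 11 members were detected (54.5%, against 41.6% of all genes). Only Eya1 was bright. Eya3 read 8.45, 9.18 and 8.45 (position 54.9) and Six5 read 8.24, 8.85 and 8.45 (position 50.8). Six3, which is required for the presumptive lens ectoderm to express Pax6 and Sox2, read 7.87, 8.77 and 7.57 (position 39.3), a range of more than 1 on the neqc scale. Dach2 and Six4 were dim, at positions 6.9 and 1.1. Eya2 and Six6 were detected on no array. In this list 5 of the 6 detected members were highest on replicate 2.

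Of 26 other regulators of the lens placode and vesicle, 17 were detected (65.4%, against 41.6% of all genes). Mafg, a small Maf protein, read 9.72, 10.66 and 9.69 (position 80.7), and Sall4, a zinc finger factor of early embryos, read 9.84, 10.04 and 9.88 (position 79.0). The factors of fibre differentiation lay lower: Prox1 read 9.65, 8.84 and 9.17 (position 66.2) and Maf read 8.13, 8.34 and 7.65 (position 38.6). Pitx3, needed for the lens vesicle to separate and grow, was dim at 6.56, 7.16 and 6.55 (position 2.9). Foxe3, which acts in the lens vesicle, and Hsf4, a heat shock factor of the maturing lens, were detected on no array, as were Pitx1, Gata3 and Msx2. Foxe3 read 5.93, 6.18 and 5.98, beside a median of 5.80 for the brightest probes of undetected genes.

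**Figure D3:**
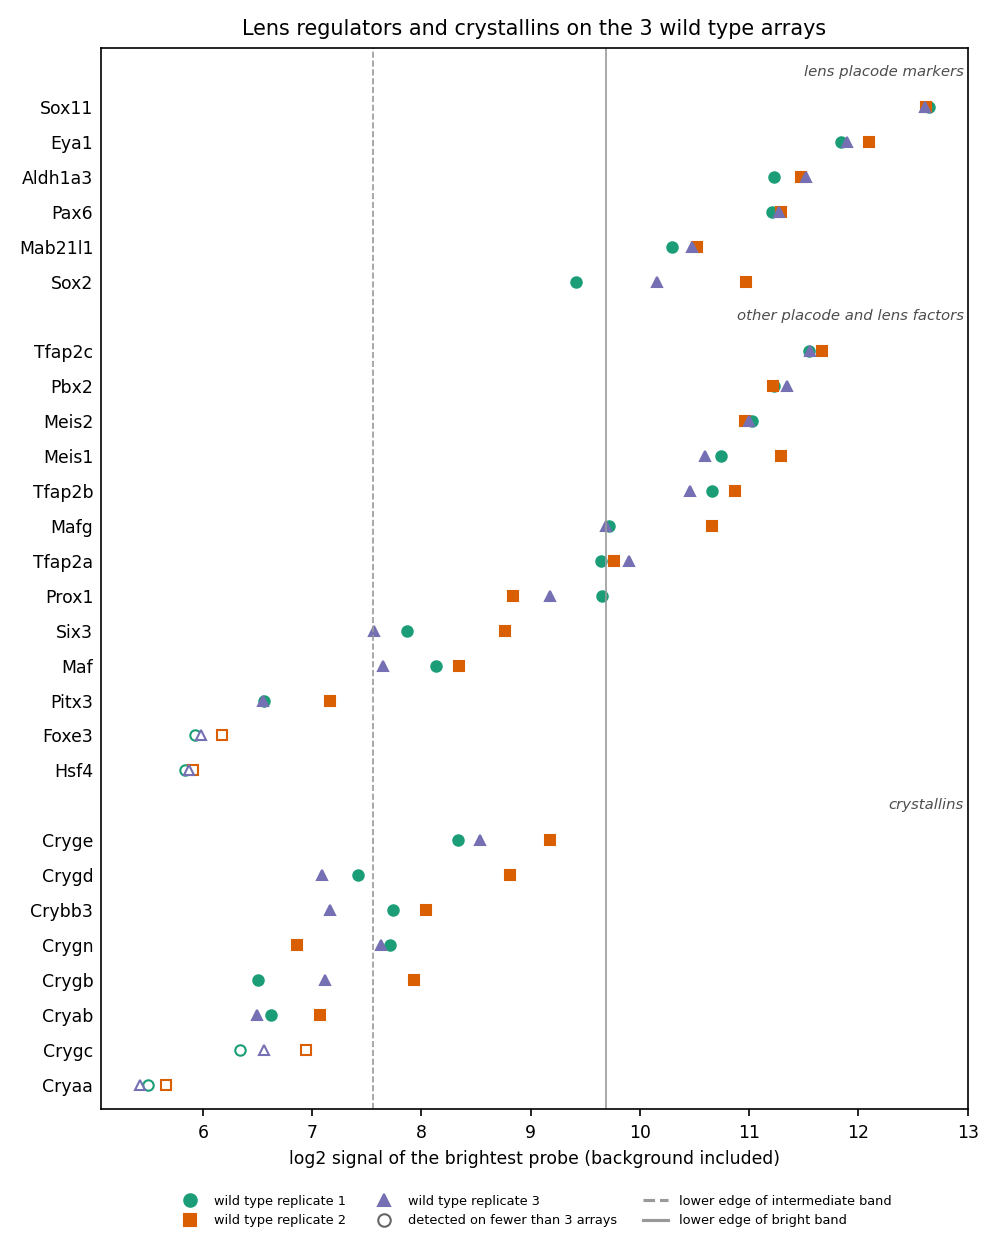
Log2 signal of the brightest probe (horizontal axis, background included) on each of the 3 wild type arrays for lens placode markers, other regulators and crystallins; open symbols mark genes detected on fewer than 3 arrays. The dashed line at 7.56 and the solid line at 9.69 are the lower edges of the intermediate and bright bands. Crystallins lie left of the solid line, and Sox2 spans 9.42 to 10.97.

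Hox genes, which pattern the trunk and hindbrain, were detected in 1 of 38 cases (2.63%, against 41.6% of all genes). On no array were 36 detected. The exception was Hoxa9, at 8.21, 7.38 and 6.80 (position 22.4), with replicate 1 highest. It was detected on 2 of its 3 probes, which followed the same order of arrays. Factors of other cranial placodes were detected in 4 of 18 cases (22.2%). Foxi2, of early cranial ectoderm, read 9.13, 8.75 and 8.39 (position 56.1). Dlx2 and Isl1 lay at positions 34.1 and 27.4. The otic and neurogenic genes Foxi1, Foxi3, Neurog1 and Neurod1 were detected on no array.

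Crystallins, the structural proteins of the lens, were detected in 6 of 16 cases (37.5%, near the 41.6% of all genes). Of these, 3 were intermediate and 3 dim, with a median position of 24.0 against 50.0 for all detected genes. Cryge, a gamma crystallin, read 8.34, 9.18 and 8.54 (position 54.6) and was the brightest. Crygd read 7.42, 8.81 and 7.09 (position 31.2), and Crybb3, a beta crystallin, read 7.74, 8.04 and 7.16 (position 27.6). Crygn, Crygb and Cryab lay at positions 20.4, 14.0 and 2.2. Cryaa, the alpha crystallin confined largely to lens, was detected on no array, with no array above 5.67, and so were Cryba2, Crybb1 and Crybb2.

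Among membrane and fibre proteins of the lens, 4 of 13 were detected (30.8%, against 41.6% of all genes). Gja1, a gap junction protein of lens epithelium and many other tissues, read 12.82, 12.76 and 12.81 (position 99.4). Celf1, an RNA-binding protein needed in lens fibre cells, read 11.26, 11.30 and 11.32 (position 94.8). Mip, the aquaporin of fibre cell membranes, read 7.62, 7.86 and 7.65 (position 29.3), and Tdrd7, an RNA granule protein linked to cataract, was dim at position 2.2. The fibre proteins Lim2, Bfsp2, Gja3 and Lgsn were detected on no array.

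Epithelial and surface ectoderm genes were detected in 19 of 32 cases (59.4%, against 41.6% of all genes), and 9 were bright. Esrp1, a splicing factor of epithelia, read 10.89, 11.40 and 11.12 (position 93.8). Dlx3, a homeodomain factor of non-neural ectoderm, read 11.08, 11.48 and 10.74 (position 93.4). Spint1, a membrane-bound protease inhibitor, read 10.96, 11.08 and 10.84 (position 92.4). These genes were named for being among the brightest of the list, whose detected members had a median position of 69.3.

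Cldn6, whose promoter is printed above, read 10.85, 11.05 and 10.66 (position 91.4), and Cdh1, the E-cadherin of epithelial junctions, read 10.72, 10.74 and 10.94 (position 90.7). The simple-epithelium keratins were bright, Krt18 at position 86.6 and Krt8 at position 80.8. Trp63, the factor of stratified epithelium progenitors, was intermediate at 9.66, 9.01 and 9.42 (position 69.3). Krt5, a keratin of basal epidermis, was dim at 7.80, 7.65 and 7.13, and its partner Krt14 was detected on 2 arrays, at 6.40, 6.74 and 6.78. Krt5, at position 24.2, thus lay well below Krt18 and Krt8 on the scale.

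Genes of the cornified epidermis were detected in 2 of 22 cases (9.09%, against 41.6% of all genes), and 17 were detected on no array. Lor, Ivl, Krt1 and Krt2 were among the undetected. The exceptions were Sprr2a1, at 9.96, 10.16 and 10.10, and Krt10, at 9.55, 9.31 and 9.32. Sprr2a1 was detected on 1 of its 2 probes, the other reading 6.19, 6.19 and 6.11.

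Of 27 adherens junction and desmosome genes 21 were detected (77.8%, against 41.6% of all genes), 6 of them bright. Of 23 cadherin genes grouped by symbol 6 were detected (26.1%), 1 of them bright. Ctnnb1, the beta-catenin of junctions and Wnt signalling, read 13.19, 12.97 and 13.29 (position 99.6), and its partner Ctnna1 read 11.59, 11.87 and 11.75 (position 97.2). Pkp4, a plakophilin, lay at position 88.9 and Epcam, an epithelial adhesion molecule, at position 87.2. Cdh2, the N-cadherin that later joins E-cadherin in the lens, was dim at 6.83, 7.84 and 6.90 (position 14.1), highest on replicate 2. The desmosomal genes Jup, Pkp1 and Dsc3 were detected on no array.

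Tight and gap junction genes were detected in 10 of 24 cases, a share at the 41.6% of all genes, and 5 of the 10 were bright. Besides Gja1 and Cldn6 these were Gjc1, at 10.95, 11.06 and 11.20, Cldn12, at 11.04, 10.65 and 10.95, and the scaffold protein Tjp1, at 9.95, 10.51 and 9.87. Cldn3, Cldn4 and Cldn23 were each detected on 1 array. Tjp3, Ocln, Cldn1 and Cldn8 were detected on none.

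Placode cells narrow at their apical ends as the lens pit forms. Genes of apical constriction and polarity were detected in 21 of 32 cases (65.6%, against 41.6% of all genes), 14 of them intermediate. The core of the cytoskeleton was bright: Actb, a cytoplasmic actin, read 14.62, 14.92 and 14.69, and Myh9, a non-muscle myosin heavy chain, read 11.24, 11.51 and 11.27 (position 95.1). Vangl2, a planar polarity protein, read 12.39, 12.61 and 12.24 (position 98.9). Shroom3, the actin-binding protein that drives lens pit invagination, was intermediate at 8.29, 8.44 and 8.31 (position 46.4), and so were Rhoa and Rock1, at positions 60.4 and 49.4. Myl12a, Crb3 and Shroom4 were detected on no array.

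Matrix genes were detected in 50 of 80 cases (62.5%, against 41.6% of all genes). Basement membrane genes accounted for 16, led by the heparan sulfate proteoglycans Agrn, at 11.10, 11.31 and 11.07 (position 94.0), and Hspg2, at 11.08, 11.25 and 10.90 (position 93.3). Both stood above their collagen and laminin partners by position. Col4a1, a chain of basement membrane collagen, read 9.84, 9.92 and 9.46 (position 76.0). The laminin chains Lamb1, Lamb2, Lama5, Lamc1 and Lama1 were all intermediate, between positions 68.7 and 38.6, and the nidogens Nid2 and Nid1 were dim. Lama2, Lamb3, Lamc3 and Col4a3 were detected on no array.

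Of the genes for hyaluronan and heparan sulfate, 22 of 28 were detected (78.6%, against 41.6% of all genes). Gpc3, a glypican, read 12.34, 12.62 and 12.32 (position 98.9), and Gpc1, its relative, read 10.73, 10.98 and 10.65 (position 90.5). Has2, the main embryonic hyaluronan synthase, was intermediate at 8.68, 8.81 and 8.82 (position 56.3), while Has1 was undetected. Of 26 interstitial matrix genes 12 were detected (46.2%, near the 41.6% of all genes). Among them were Tnc, the glycoprotein tenascin C, at 9.65, 10.33 and 9.82 (position 79.2), and Col2a1, at 9.81, 9.57 and 9.72 (position 75.3). Of the 7 Tnc probes, 3 were detected on all 3 arrays, with mean log2 signals of 9.93, 9.82 and 6.98. The stromal genes Col1a1, Dcn and Lum were undetected.

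Integrins, the matrix receptors, were detected in 7 of 23 cases (30.4%, against 41.6% of all genes). Itgb1, the common beta subunit, read 10.34, 10.70 and 10.41 (position 87.3), and Itga9 read 10.16, 9.59 and 10.01 (position 78.9). The laminin-binding subunits Itga3 and Itga6 were intermediate, at positions 59.2 and 26.6. Itga1, Itga2 and Itga4 were detected on no array.

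Signalling genes as a class were detected in 91 of 164 cases (55.5%, against 41.6% of all genes). In the BMP and TGF-beta pathway, 20 of 34 were detected (58.8%), and the bright ones were receptors, transducers and targets. The receptors Tgfbr1, at 11.19, 11.36 and 11.22 (position 94.5), Acvr2b, at 10.78, 10.60 and 10.59 (position 89.2), and Bmpr2, at 10.62, 10.74 and 10.59 (position 89.1), all had closely spaced arrays. Id2, a target of BMP signals, read 10.88, 11.09 and 10.82 (position 92.1), and Smad3 and Smad1, which carry the TGF-beta and BMP signals, lay at positions 90.3 and 85.5.

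No ligand of this pathway was bright. Bmp4, which the optic vesicle and surface ectoderm supply to the lens, read 8.24, 9.38 and 8.18 (position 52.9), with replicate 2 highest. Bmp7, which is needed in the presumptive lens ectoderm, read 8.23, 7.75 and 7.85 (position 35.7). Bmp2, Bmp5 and Bmp6 and the secreted inhibitors Nog, Chrd and Grem1 were detected on no array.

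In the FGF pathway, 11 of 26 genes were detected (42.3%, near the share of all genes). The receptor Fgfr2 read 11.40, 11.78 and 11.39 (position 96.1), and Fgfr1 was intermediate at 8.46, 9.15 and 8.14 (position 52.5). Dusp6, a phosphatase switched on by FGF and ERK signalling, read 11.44, 11.36 and 11.54 (position 95.6), and the adaptor phosphatase Ptpn11 read 11.33, 11.28 and 11.17 (position 94.6). Over the 22 Fgf genes with a probe, only 2 were detected (9.09%, against 41.6% of all genes). They were Fgf13 at 8.08, 9.40 and 8.40 and Fgf15 at 7.59, 6.86 and 6.60. Fgf13 encodes a protein that is not secreted. Fgf2, Fgf3, Fgf4 and Fgf8 were detected on no array.

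The Wnt pathway was detected in 29 of 49 cases (59.2%, against 41.6% of all genes) and had bright members of opposite known roles. Sfrp2, a secreted Wnt antagonist, read 13.07, 13.87 and 13.10 (position 99.8), rank 18 of all detected genes, and Dkk3 read 10.05, 10.27 and 10.11 (position 82.5). Wnt7b, a ligand of surface ectoderm, read 10.68, 11.11 and 10.59 (position 90.6). Axin1 and Gsk3b, of the complex that degrades beta-catenin, lay at positions 89.2 and 80.5.

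Of 19 Wnt ligands 7 were detected (36.8%, against 41.6% of all genes), and 11 were detected on no array, Wnt1, Wnt2b and Wnt3 among them. Of 10 Frizzled receptors 7 were detected (70%), with Fzd7 at 10.14, 9.37 and 9.73 (position 76.1). Axin2, a widely used target of Wnt signals, read 8.27, 6.67 and 7.84 (position 26.2), with replicate 2 lowest. Sfrp5, another antagonist, read 7.10, 9.20 and 7.34 (position 33.9), with replicate 2 highest, so that neither value was stable across the arrays.

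Notch pathway genes were detected in 11 of 22 cases (50%, against 41.6% of all genes), with 1 bright. That was Dlk1, a non-canonical ligand and imprinted gene, at 10.19, 10.05 and 9.89 (position 81.0). Jag1, the ligand later used in lens fibre growth, read 9.16, 8.91 and 9.12 (position 62.7). The receptors Notch3 and Notch1 were dim, at positions 16.9 and 7.3, and Hes1, a target of Notch, lay at position 0.3. Dll1, Dll3, Dll4 and Jag2 were detected on no array.

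Of 20 retinoic acid genes 12 were detected (60%, against 41.6% of all genes). After Aldh1a3 the brightest were the receptor Rxrb, at 10.88, 10.94 and 10.45 (position 90.2), and the synthesis enzyme Aldh1a1, at 9.87, 10.50 and 9.60 (position 80.2). The binding protein Crabp2 and the dehydrogenase Rdh11 were intermediate, at positions 68.1 and 66.6. Aldh1a2, the synthesis enzyme of trunk mesoderm, was detected on no array, and so were Rdh10, Rbp4 and Rxra.

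Hedgehog pathway genes were detected in 8 of 13 cases (61.5%, against 41.6% of all genes), without any of the ligands Shh, Ihh and Dhh. The transcription factor Gli3, which mainly represses Hedgehog targets, read 10.26, 10.42 and 10.04 (position 83.9). The coreceptor Cdon read 9.93, 10.06 and 9.56 (position 77.8). Ptch1, receptor and target of the pathway, read 10.24, 9.40 and 9.65 (position 76.4), and Gli1, another target, was intermediate at 8.02, 8.18 and 8.14 (position 40.4).

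Markers of tissues that lie against the placode were read from the same arrays. Optic vesicle and neural ectoderm genes were detected in 8 of 22 cases (36.4%, against 41.6% of all genes), none of them bright. Their summed signal was 2307, 2591 and 2352. Rax, an eye field factor of the optic vesicle, read 7.31, 7.71 and 7.44 (position 23.0), and Mitf, of the pigment epithelium, read 8.20, 8.11 and 7.84 (position 38.8). Otx1 and Dct were the brightest of the list, at positions 65.3 and 65.2. Lhx2 was detected on 1 array and Pax2 on 2, while Six6, Vax1, Vax2 and Tyr were detected on none. Summed signals are of the detected members' probes on the linear scale and include background.

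Periocular mesenchyme and neural crest genes were detected in 16 of 27 cases (59.3%, against 41.6% of all genes), with a median position of 35.7 and a summed signal of 8190, 9275 and 8732. Pdgfra, a growth factor receptor of mesenchyme, read 10.30, 10.33 and 10.11 (position 84.0). Foxc1 read 7.61, 8.19 and 8.01 (position 35.6), Prrx1 read 6.70, 7.79 and 7.44, and Twist1 read 7.11, 7.17 and 7.20. The crest factor Sox10 and Pdgfrb were detected on no array. Of the 16 detected members 6 stand in another list as well, the bright Sox9 and Tfap2b among them. The part of neighbouring mesenchyme in the matrix and signalling values was not tested.

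Endothelial genes were detected in 4 of 20 cases (20%, against 41.6% of all genes), with a summed signal of 987, 1247 and 1128. The defining markers Pecam1, Cdh5, Kdr, Tek, Tie1 and Emcn were detected on no array, and the brightest member was Cldn5, a claudin also found outside vessels, at position 54.0. Macrophage and leukocyte genes were detected in 2 of 16 cases (12.5%), with a summed signal of 531, 885 and 530. These were Laptm5, at position 56.1, and Aif1, at 6.81, 8.55 and 7.24. Ptprc, Csf1r and Cx3cr1 were detected on no array, and Tyrobp was detected on replicate 2 only.

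Embryonic globin genes, which mark primitive red cells, were bright. Hbb-y, an embryonic beta-like globin, read 11.72, 12.97 and 12.57 (position 98.9), Hbb-bh1 read 11.01, 12.32 and 11.92 (position 97.2), and Hba-x, an embryonic alpha-like globin, read 9.35, 10.95 and 10.03 (position 81.9). Each was highest on replicate 2 and lowest on replicate 1. Hba-a1 followed that order too, at 10.07, 11.70 and 10.82 (position 91.5). The adult beta globin genes lay lower and were highest on replicate 3, with Hbb-b2 at 6.79, 7.01 and 7.62 (position 12.7) and Hbb-bt, which is outside the list, at 7.23, 8.21 and 9.31 (position 44.1). Of 15 erythroid genes 7 were detected (46.7%, near the 41.6% of all genes). Of the 7, 5 were highest on replicate 2, and 6 spanned more than 1 on the neqc scale. Their summed signal was 8956, 20258 and 14549. The erythroid factors Gata1 and Klf1 were each detected on 1 array and the haem synthesis gene Alas2 on 2.

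**Figure D4:**
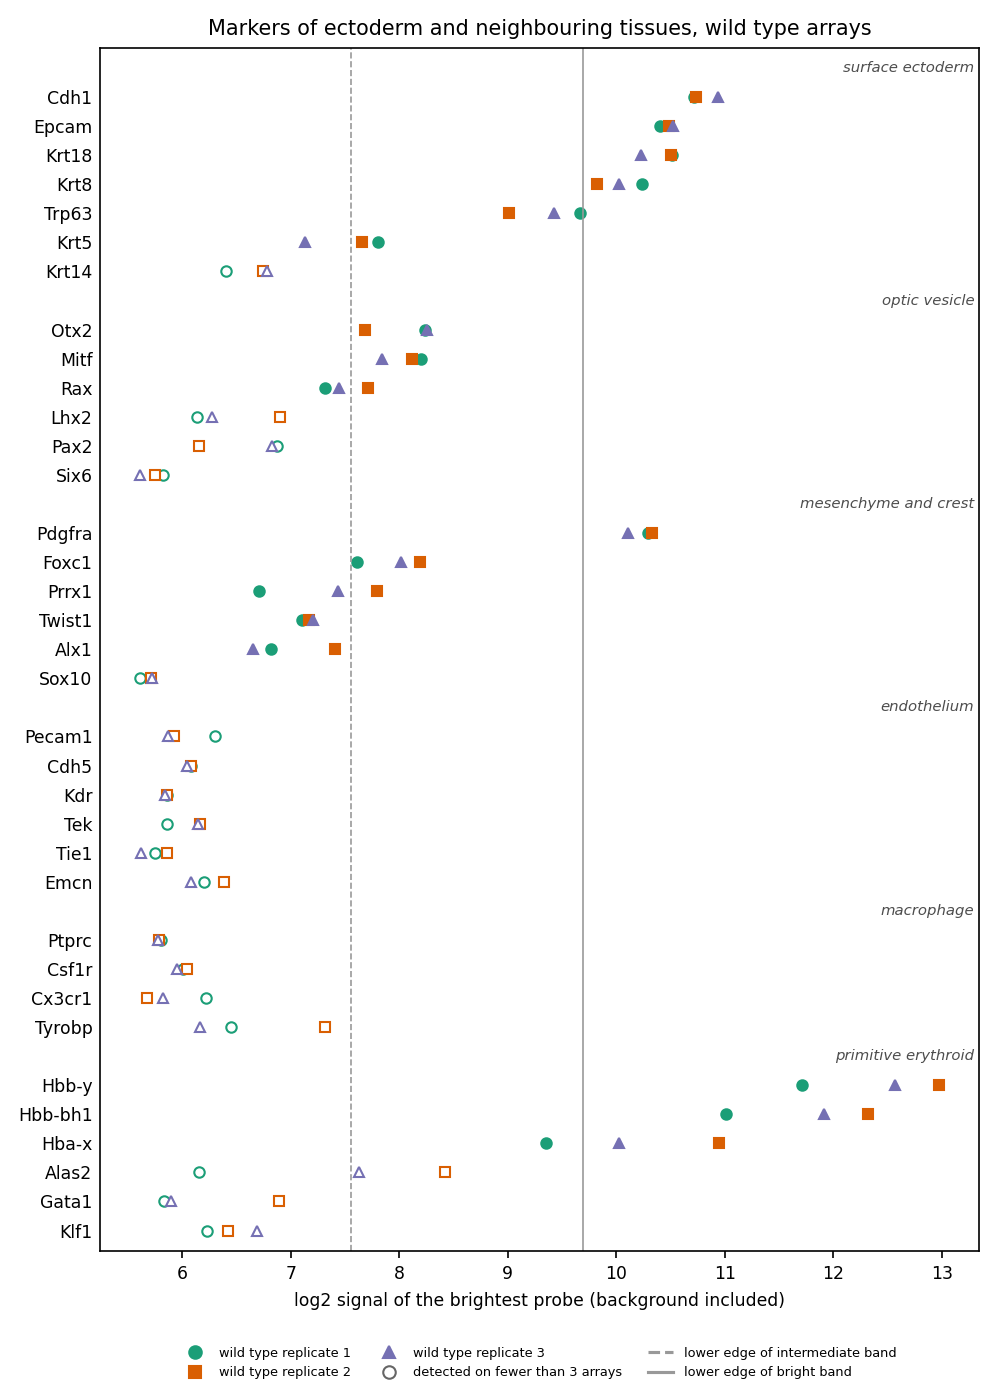
Log2 signal of the brightest probe (horizontal axis, background included) on each of the 3 wild type arrays for markers of surface ectoderm and of neighbouring tissues; open symbols mark genes detected on fewer than 3 arrays. The endothelial markers are all open, and the globins spread from 11.72 to 12.97 for Hbb-y and from 9.35 to 10.95 for Hba-x. The dashed and solid lines are the lower edges of the intermediate band (7.56) and the bright band (9.69).

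Genes of distant organs were detected in 5 of 61 cases (8.20%, against 41.6% of all genes). Liver, gut and pancreas gave 1 of 22, Sox17, which endothelium shares, with Alb, Afp, Apoa1 and Apoa2 undetected. Muscle gave 2 of 18, Des at position 29.3 and Myh8 at position 4.9, with Myod1, Myf5, Myf6 and Myog undetected. Photoreceptor genes gave 2 of 21, or 4 without replicate 2. One of these, Opn1sw, the short-wave cone opsin, read 10.44, 10.09 and 10.23 (position 84.2), but its other probe was not detected, at 5.89, 6.06 and 6.02. Rom1, a disc membrane protein, lay at position 50.1.

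Growth and division genes were mostly detected, and many were bright. Of 29 ribosomal protein genes 28 were detected (96.6%, against 41.6% of all genes), with a median position of 93.4. Rps12 was brightest among them at 12.78, 12.92 and 12.87. All 31 translation, chaperone and cytoskeleton genes were detected. Glycolysis gave 12 of 16 (75%). It was led by Pkm, a pyruvate kinase, at 12.04, 12.13 and 12.02, and by the glucose transporter Slc2a1, at 11.87, 12.19 and 11.84. Gapdh lay lower, at 9.25, 9.33 and 9.31 (position 67.7).

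Cell cycle genes were detected in 29 of 33 cases (87.9%, against 41.6% of all genes). Ccnd1, the cyclin that drives entry into S phase, read 12.67, 12.90 and 12.80 (position 99.4), and the replication helicase subunits Mcm4, Mcm6 and Mcm5 lay at positions 99.3, 98.7 and 98.1. Cdkn1c, an inhibitor that marks cells leaving the cycle in lens fibres, was bright too, at 10.89, 11.01 and 10.67 (position 91.4), while Cdkn1a was dim at position 1.0. The inhibitors Cdkn2a, Cdkn2b and Cdkn2c were detected on no array. Imprinted growth genes were detected in 13 of 15 cases (86.7%), 10 of them bright. Among these were Grb10 at 12.70, 12.41 and 12.74 (position 99.2), Igf2 at 11.45, 11.95 and 11.37 (position 96.5) and Igf2r at 11.49, 11.49 and 11.33 (position 95.6).

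The 15 genes of highest rank were mostly genes of the cytoskeleton, RNA processing and translation, among them Actb, Hnrnpm, Tubb5, Tuba1a, Hnrnpa1, Eif5a and Eef1a1. Some were genes known for restricted expression. Ctcfl, a testis paralogue of the insulator protein Ctcf, held rank 1 at 15.06, 15.31 and 15.13 on its single probe. Siglece, a receptor of myeloid cells, held rank 10 at 13.58, 13.84 and 13.39, but its other 2 probes were not detected, at mean log2 signals of 5.68 and 5.70. Rchy1, a ubiquitin ligase, read 14.47, 14.75 and 14.48 on its brightest probe and 8.19, 7.36 and 7.76 on the other detected one. Capza2, an actin capping subunit, had probes at 14.35 and 8.25 on average.

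Such disagreement between probes was common. Of 9172 genes with more than 1 probe, 1438 had all probes detected, 3576 had some and 4158 had none. Among 2693 genes with more than 1 kept probe, the brightest and the dimmest differed by a median of 1.15 on the log2 scale, and 771 (28.6%) differed by more than 2. Of the 4 Eya1 probes, 3 were detected, with mean log2 signals of 11.94, 7.67 and 7.61. The rank of a gene is thus that of its brightest probe.

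At the detection threshold, genes just inside read much like those just outside. Abcb5, Aldh3a2 and Ankrd53 had a highest detection p of 0.00962 over the arrays, and Aldh3a2 read 7.07, 6.56 and 6.44. Abcc10, Adcy6 and 9430038I01Rik had a highest detection p of 0.0107, and Adcy6 read 7.00, 6.80 and 6.34.

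The spread among the wild type arrays was lowest for bright genes, while the order of intermediate and dim genes depended on the scale. On the neqc scale, 1537 detected genes (19.4%) spanned more than 1 among the arrays, 3.43% of the bright, 21.8% of the intermediate and 30.5% of the dim ones. Median SDs on that scale were 0.166 for bright, 0.319 for intermediate and 0.387 for dim genes. On the log2 signal scale they were 0.177, 0.290 and 0.277, so there dim genes spread no more than intermediate ones. The median SD over all detected genes was 0.254 on the log2 signal scale. The standard error of a probe's mean over its beads within an array had a median of 0.0486. In 901 of the 1537 genes replicate 2 was the array farthest from the other two, 455 times high and 446 times low. Replicate 1 was the odd array in 322 genes and replicate 3 in 314. With 2 arrays left in place of 3, 370 genes spanned more than 1 without replicate 2, 937 without replicate 1 and 953 without replicate 3.

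Genes with the largest ranges were mostly of the intermediate band. Gadd45g, a growth arrest and stress gene, read 6.85, 9.47 and 7.52, and Egr1, an immediate early gene, read 7.64, 9.99 and 8.69. Both were highest on replicate 2. Prom2, a membrane protein of epithelial protrusions, read 10.34, 8.00 and 10.50, and Ccdc60 read 8.72, 6.46 and 7.98, both lowest on replicate 2. Lrrc15 read 6.51, 8.92 and 7.94, and Vav3, a guanine nucleotide exchange factor, read 9.81, 7.46 and 9.15.

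Among lists with at least 4 detected members, the largest shift was that of the erythroid genes, whose median deviation from the 3-array mean was -0.69, 0.54 and 0.14 on the neqc scale. Crystallins deviated by -0.30, 0.47 and -0.17, and 5 of the 6 were highest on replicate 2. Over all detected genes the median deviations were -0.01, 0.01 and 0.01. Ribosomal protein genes deviated by 0.13, -0.12 and 0.03. The part of red cell RNA in the distance of replicate 2 from the other arrays was not tested.

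**Figure D5:**
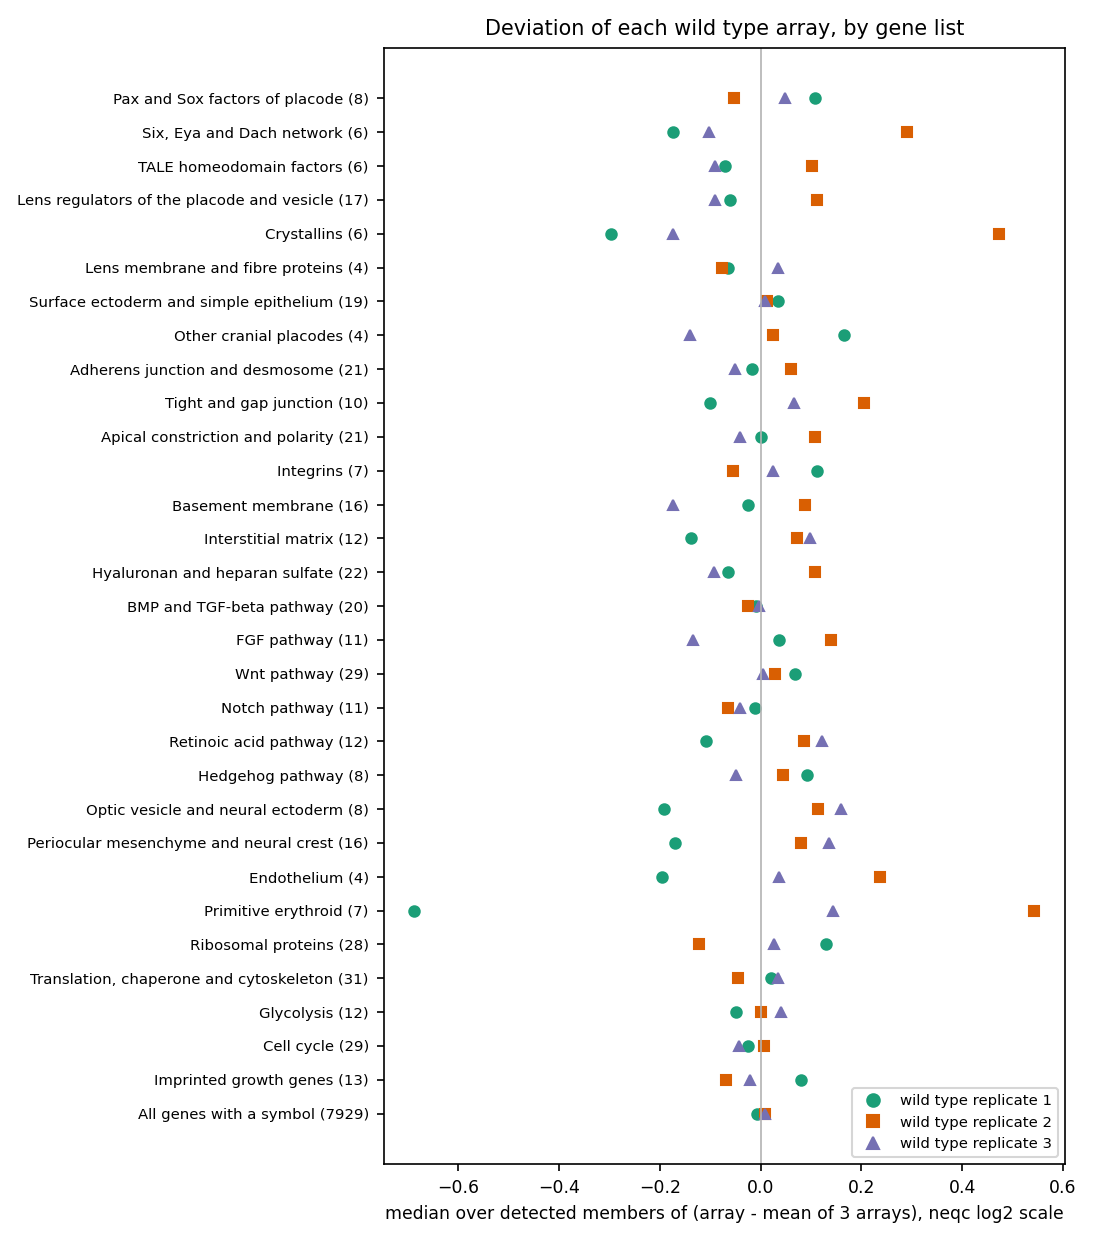
Median, over the detected members of each gene list (number in brackets), of each wild type array's difference from the mean of the 3 arrays (horizontal axis, log2 units on the neqc scale), for lists with at least 4 detected members. Primitive erythroid genes spread from -0.69 on replicate 1 to 0.54 on replicate 2, and the last row gives all 7929 detected genes.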

How the data were processed

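RNA of microdissected wild type lens placode was hybridised to 3 Illumina bead arrays. Per the file headers, the deposited values are an average intensity for every probe and array, without background subtraction, and its detection p-value. The bead standard error, on the signal scale, and the count of beads were also deposited beside each intensity. The submitters' processing notes name GenomeStudio without a version. A further table of processed intensity values was deposited, and the method behind it is not stated in the labels.

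Groups came from the sample titles and slides from the chip in each description. Detection p was required under 0.01 on all 3 arrays. Of 45281 probes, 34885 had 1 gene symbol in the platform annotation, 18 had several and 10378 had none; 34807 of those with 1 symbol matched a RefSeq gene. The brightest kept probe stood for a gene, and ranks used the mean log2 intensity. The spread among arrays was taken after limma's neqc (limma 3.58.1, R 4.3.3, offset 16) on the same 3 arrays. The offset compresses differences of dim probes, but the median SD of dim genes was still larger on the neqc scale than on log2 signals. The array number limits the precision, and no test was made. The counting steps were run on simulated arrays whose detected genes lay far above background, so calls near the threshold were not checked.

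The gene lists and the 6 markers were chosen with earlier results of these data known. Named genes were the markers, the 15 brightest genes and 10 brightest transcription factors, up to 5 detected, 3 partly detected and 4 undetected members per list, the 15 of largest range and those nearest the threshold; some further members were named for their known role after their values were seen. Alternatives were detection p under 0.05 or 0.001, detection on at least 2 arrays, each array or slide left out, neqc or authors' values for ranks, and the mean of a gene's probes. The 3 Pax6-/- arrays were left out. Promoter windows came from RefSeq (GRCm38.p6).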

Additional observations from a re-analysis of the deposited data

Results flagged for a closer look

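Probes that carry no gene symbol in the annotation used here stayed outside the ranking, although 2089 of 10378 of them (20.1%) were detected on all 3 wild type arrays, beside 33.6% of the probes with 1 symbol. Their kept probes had a median mean log2 signal of 8.13, against 8.18 for kept probes with a symbol, and the brightest reached 15.60. They were singled out because a signal appears in data that no gene list covers.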

How the results depend on the processing

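The number of detected genes was 7929, and it was 9659 with a detection p under 0.05, 8987 with at least 2 arrays, 9123 on slide 1 alone and between 8229 and 8392 with 1 array left out. With a detection p under 0.001, which only a p of 0 meets on these arrays, it was 3927. At that setting 24 of the 37 lists changed by more than 1.5 times, with 9 of 17 lens regulators, 1 of 6 genes of the Eya1 and Six3 network, 0 of 6 crystallins, 14 of 29 Wnt, 9 of 20 BMP and TGF-beta, 7 of 11 FGF, 5 of 11 Notch, 6 of 12 retinoic acid, 5 of 8 Hedgehog, 13 of 21 adherens junction, 10 of 21 polarity, 3 of 7 integrin, 9 of 16 basement membrane, 6 of 12 interstitial matrix and 12 of 22 hyaluronan and heparan sulfate genes left. Optic vesicle genes were then 2 of 8, mesenchyme genes 4 of 16, endothelial genes 1 of 4, other placode genes 1 of 4, lens membrane genes 2 of 4, macrophage genes 1 of 2, and muscle, organ and Hox genes 0. With a p under 0.05, optic vesicle genes were 13, endothelial genes 8, muscle genes 5, and cornified, organ and photoreceptor genes 4 each, and Hox genes 2. Genes spanning more than 1 among the arrays were 1537, and 949 on centred log2 signals, 1741 on the authors' values, 1359 on the mean of a gene's probes and 370 to 953 with 1 array left out, where fewer arrays are compared. Between 22 and 26 lists lay above the share of all genes under the alternatives run. The lists with a median position above 50 were 21, and 20 to 24 under the alternatives, but single medians moved by more than the spread between arrays in 25 of 37 lists with a p under 0.05, in 23 on the mean of a gene's probes and in 11 to 15 with 1 array left out. The Pax and Sox median of 87.7 was 66.3 without replicate 2, and the lens membrane median of 62.1 was 29.1 with a p under 0.05. No paired analysis was possible because only wild type arrays were used and no result comes from a test. Depth cannot be told from a detection call: an undetected probe may lie on a transcript below the background of its array.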

Other observations

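Gene families grouped by symbol alone showed the same range as the lists. Subunits of mitochondrial complex I, the entry point of the respiratory chain, were detected in 33 of 34 cases (97.1%), and proteasome subunits in 33 of 39 (84.6%). Zinc finger genes named Zfp were detected in 179 of 331 cases (54.1%, against 41.6% of all genes), mostly in the intermediate and dim bands, with a median position of 37.4. Protocadherins were detected in 11 of 65 cases (16.9%) and cytochrome P450 genes in 6 of 87 (6.90%).

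Families of sensory and immune function were nearly all undetected. Olfactory receptors were detected in 12 of 1078 cases (1.11%), vomeronasal receptors in 0 of 173, taste receptors in 0 of 35 and interleukins in 0 of 36. The 12 detected olfactory receptors held no bright gene.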
